A study of Capra hircus with 20 samples.

Results

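The 9 genes AIF1, CX3CR1, P2RY12, TMEM119, CSF1R, C1QA, C1QB, C1QC and TREM2 are markers of microglia, and they were followed in the hypothalamus of goats from birth to the age of sexual maturity. They were chosen by name, as genes known to mark these cells, at a time when earlier results of these data were known. All 9 were found by their gene IDs among the 21071 genes of the expression table. The study collected hypothalamic tissue of female Jining grey goats at 1 day (D1), 60 days (M2), 120 days (M4) and 180 days (M6) after birth, with 5 healthy goats at each stage and 1 RNA-seq library per goat. All goats were reared under the same management, none was treated, and they were slaughtered on the same day, so each stage holds different animals. The values are FPKM, fragments scaled by the authors to the exon length of the gene and to the mapped reads of the library, and they can be compared between genes because they are per length.

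Microglia are the resident macrophages of the central nervous system. They settle in the brain before birth, renew themselves there, and need signalling through the CSF1R receptor to survive. They scan the tissue with fine processes, sense nucleotides released by damaged cells and the chemokine of neurons, and remove dying cells and synapses, in part through the complement protein C1q, which microglia make in the brain. In whole tissue, fewer microglia and less RNA of a gene per cell cannot be told apart.

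The libraries differed widely in their levels of tissue markers. The summed FPKM of a library ranged from 260199 to 377479. NKX2-1, OTP and SIM1, transcription factors of hypothalamic neurons and their precursors, were all under 0.5 FPKM in 7 of the 20 libraries, 1 of them at D1, 4 at M4 and 2 at M6, so these markers were near absent from 4 of the 5 M4 libraries. AVP, the vasopressin gene, ranged from 0.246 to 392 FPKM, and OXT, the oxytocin gene, from 0 in 6 libraries to 413. The summed level of 4 general neuron genes ranged from 62.4 in M6 replicate 3 to 2516 in M4 replicate 1, and that of 6 myelin genes from 443 to 14710. The part of tissue composition in the results below was not tested.

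All 9 genes were expressed in all 20 libraries, and 0 of them differed between stages after adjustment. By mean FPKM over the 20 libraries (± SD, n = 20), the order was P2RY12 at 33.2 ± 13.8, CX3CR1 at 28.8 ± 9.85, AIF1 at 22.8 ± 9.88, C1QB at 20.3 ± 8.67, C1QC at 14.45 ± 5.82, CSF1R at 11.4 ± 4.99, C1QA at 8.24 ± 4.12, TMEM119 at 5.58 ± 2.54 and TREM2 at 3.94 ± 2.39. Each gap between neighbours in this order was smaller than the larger SD of the pair. P2RY12 was above CX3CR1 in 14 libraries, CX3CR1 above AIF1 in 14 and AIF1 above C1QB in 13, so these 4 often changed places. C1QB was above C1QC in 20 of 20 libraries, C1QC above CSF1R in 18, CSF1R above C1QA in 15, C1QA above TMEM119 in 16 and TMEM119 above TREM2 in 16. P2RY12 had a higher mean than 92.1% of all genes and TREM2 a higher mean than 55.7%.

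**Figure D1:**
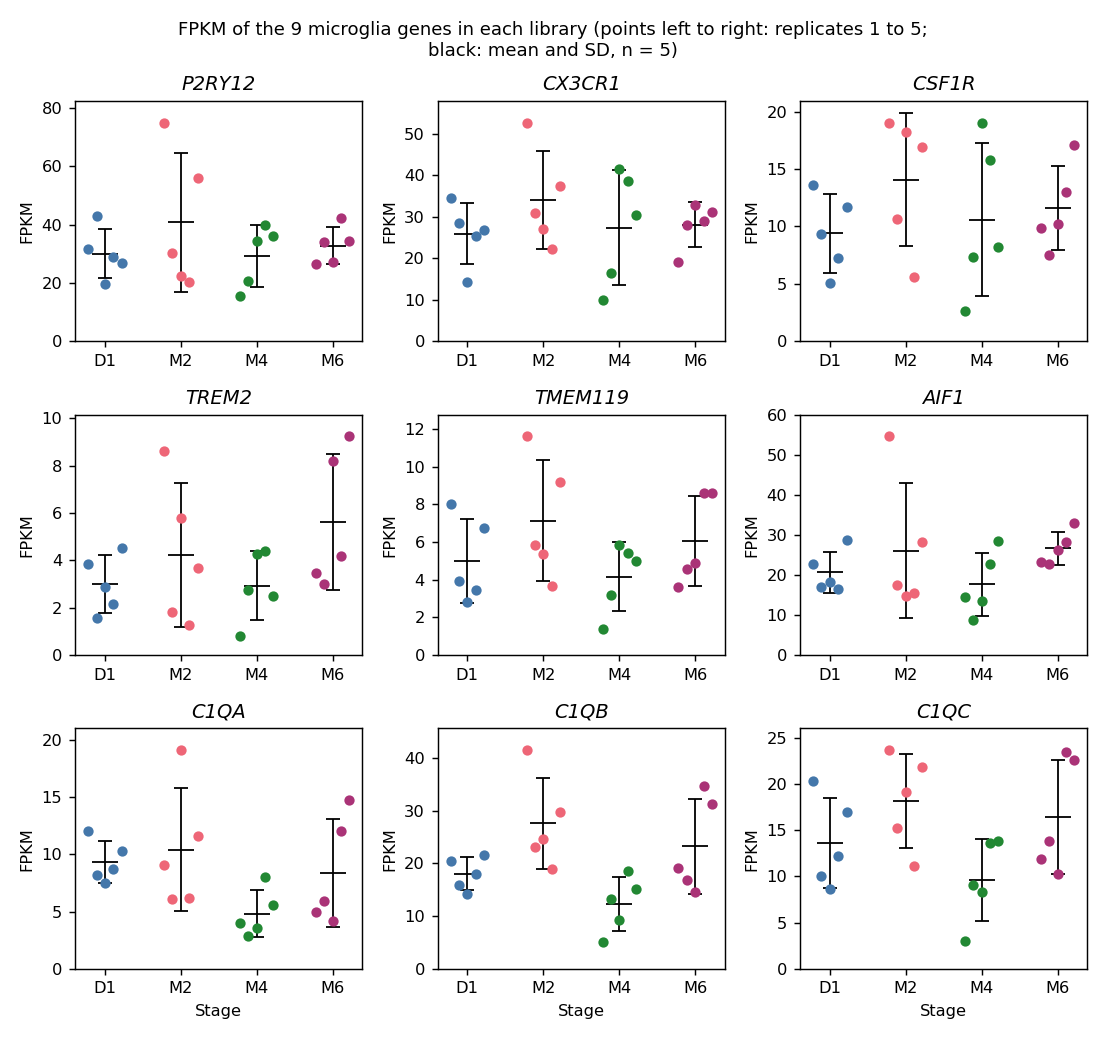
FPKM of each of the 9 genes (y axis, linear, from 0) at D1, M2, M4 and M6 (x axis), with 1 point per library and the mean and SD of 5 libraries in black. The stages overlap for every gene except C1QB, whose 5 M4 libraries (highest 18.58) lie below its 5 M2 libraries (lowest 18.98).

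The 2 receptors that give microglia their sense of the surroundings had the highest levels. P2RY12 is the ADP receptor that draws microglial processes towards released nucleotides. P2RY12 was at 31.6, 42.9, 19.7, 28.9 and 26.99 FPKM in D1 replicates 1 to 5, at 75.02, 30.4, 22.4, 20.2 and 55.99 in M2, at 15.4, 20.6, 34.2, 39.9 and 36.1 in M4 and at 26.4, 33.95, 27.00, 42.2 and 34.5 in M6. M2 replicates 1 and 5 stood highest and M4 replicate 1 lowest, and all 4 stages overlapped. By stage, the means were 30.01 ± 8.43 (D1), 40.8 ± 23.8 (M2), 29.2 ± 10.6 (M4) and 32.8 ± 6.46 (M6) (SD, n = 5).

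CX3CR1 is the receptor of fractalkine, the chemokine that neurons carry on their surface. CX3CR1 was at 34.5, 28.4, 14.2, 25.4 and 26.8 FPKM in D1 replicates 1 to 5, at 52.7, 30.9, 27.1, 22.2 and 37.4 in M2, at 9.83, 16.5, 41.5, 38.5 and 30.5 in M4 and at 18.96, 28.1, 32.9, 29.1 and 31.2 in M6. M2 replicate 1 was the highest library and M4 replicate 1 the lowest, and M4 alone held values from 9.83 to 41.5. Its means by stage were 25.9 ± 7.36 (D1), 34.04 ± 11.8 (M2), 27.4 ± 13.8 (M4) and 28.03 ± 5.402 (M6).

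CSF1R, the receptor of the growth factors CSF1 and IL34, is the receptor on which microglial survival depends. CSF1R was at 13.6, 9.33, 5.04, 7.27 and 11.7 FPKM in D1 replicates 1 to 5, at 18.99, 10.6, 18.2, 5.59 and 16.9 in M2, at 2.59, 7.304, 19.04, 15.8 and 8.22 in M4 and at 9.88, 7.54, 10.2, 13.03 and 17.1 in M6. Both the lowest and the highest of the 20 values were in M4, replicates 1 and 3. Means by stage were 9.400 ± 3.42 (D1), 14.1 ± 5.78 (M2), 10.6 ± 6.69 (M4) and 11.6 ± 3.66 (M6).

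TREM2 is a lipid-binding receptor that signals through the adaptor TYROBP and supports uptake of debris. TREM2 was at 3.86, 1.56, 2.86, 2.13 and 4.53 FPKM in D1 replicates 1 to 5, at 8.63, 1.83, 5.79, 1.25 and 3.66 in M2, at 0.815, 2.75, 4.25, 4.38 and 2.48 in M4 and at 3.45, 2.998, 8.21, 4.18 and 9.23 in M6. It was the lowest of the 9 genes and the one with the widest range, 11.3-fold between M4 replicate 1 and M6 replicate 5. The means of the stages were 2.99 ± 1.22 (D1), 4.23 ± 3.03 (M2), 2.93 ± 1.46 (M4) and 5.62 ± 2.89 (M6).

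TMEM119, a membrane protein used to tell microglia from other macrophages of the brain, was the other gene at a low level. TMEM119 was at 7.99, 3.92, 2.82, 3.46 and 6.72 FPKM in D1 replicates 1 to 5, at 11.6, 5.84, 5.37, 3.65 and 9.18 in M2, at 1.39, 3.19, 5.84, 5.43 and 4.99 in M4 and at 3.63, 4.55, 4.86, 8.59 and 8.603 in M6. The order of libraries resembled that of CX3CR1, with M2 replicate 1 highest and M4 replicate 1 lowest. It averaged 4.98 ± 2.25 (D1), 7.13 ± 3.21 (M2), 4.17 ± 1.85 (M4) and 6.05 ± 2.37 (M6).

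AIF1 encodes IBA1, the calcium-binding protein by which microglia are usually stained. AIF1 was at 22.9, 16.95, 18.4, 16.6 and 28.8 FPKM in D1 replicates 1 to 5, at 54.7, 17.5, 14.7, 15.5 and 28.3 in M2, at 14.52, 8.84, 13.6, 22.8 and 28.6 in M4 and at 23.3, 22.7, 26.3, 28.3 and 32.98 in M6. M2 replicate 1 stood above all other libraries, the other 4 M2 libraries were between 14.7 and 28.3, and the 5 M6 libraries, from 22.7 to 33.0, were the closest together. On average it was at 20.7 ± 5.18 (D1), 26.1 ± 16.9 (M2), 17.7 ± 7.92 (M4) and 26.7 ± 4.17 (M6).

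The 3 chains of C1q, which recognises its targets and starts the classical complement pathway, are encoded side by side on chromosome 2 of the ARS1.2 assembly, C1QA at 5770491 to 5773472, C1QC at 5777650 to 5782031 and C1QB at 5789994 to 5797051. The 3 genes span 26561 bases, with 4177 bases between C1QA and C1QC and 7962 between C1QC and C1QB. The other 6 genes lie on other chromosomes, with AIF1 at 22277461 to 22279848 and TREM2 at 33718781 to 33723491 both on chromosome 23, P2RY12 on chromosome 1, CSF1R on chromosome 7, TMEM119 on chromosome 17 and CX3CR1 on chromosome 22.

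C1QB was at 20.4, 15.8, 14.1, 18.1 and 21.7 FPKM in D1 replicates 1 to 5, at 41.4, 23.1, 24.7, 18.98 and 29.7 in M2, at 5.14, 13.3, 9.34, 18.6 and 15.1 in M4 and at 19.1, 16.9, 14.54, 34.6 and 31.2 in M6. The highest M4 library, at 18.58, was below the lowest M2 library, at 18.98, while D1 and M6 overlapped both. The stage means were 18.01 ± 3.13 (D1), 27.6 ± 8.65 (M2), 12.3 ± 5.203 (M4) and 23.3 ± 9.02 (M6). C1QC was at 20.4, 10.03, 8.603, 12.2 and 16.9 FPKM in D1 replicates 1 to 5, at 23.7, 15.2, 19.2, 11.1 and 21.8 in M2, at 3.004, 9.11, 8.35, 13.6 and 13.9 in M4 and at 11.9, 13.8, 10.3, 23.5 and 22.6 in M6. It followed C1QB closely, with M4 replicate 1 again far below all others. C1QA was at 12.1, 8.19, 7.47, 8.69 and 10.3 FPKM in D1 replicates 1 to 5, at 9.099, 6.05, 19.1, 6.21 and 11.6 in M2, at 4.04, 2.86, 3.59, 8.05 and 5.54 in M4 and at 5.000, 5.93, 4.21, 12.1 and 14.7 in M6. Here M2 replicate 3 was the highest and not replicate 1, and M4 held 3 of the 4 lowest values. Mean levels were 13.6 ± 4.91 (D1), 18.2 ± 5.08 (M2), 9.58 ± 4.45 (M4) and 16.4 ± 6.204 (M6) for C1QC, and 9.33 ± 1.83 (D1), 10.4 ± 5.36 (M2), 4.81 ± 2.06 (M4) and 8.38 ± 4.704 (M6) for C1QA.

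For all 9 genes, more of the variance lay between goats of the same stage than between stages. M2 replicate 1 was the highest of the 20 libraries for 6 of the 9 genes, and M4 replicate 1 was the lowest for 7, with M4 replicate 2 the lowest for the other two. The summed FPKM of the 9 genes was 134.9 ± 28.8 (D1), 182.6 ± 74.7 (M2), 118.6 ± 46.1 (M4) and 158.8 ± 37.2 (M6) as mean ± SD of 5 libraries, with a range from 56.7 in M4 replicate 1 to 295.8 in M2 replicate 1. In M4 replicate 1 the 4 neuron genes had their highest summed level of all libraries, 2516 FPKM, and the 6 myelin genes their lowest, 443 FPKM. In M2 replicate 1 the neuron genes summed to 153 FPKM, the lowest after M6 replicate 3. Whether these differences in neuron and myelin genes take part in the low and high microglia values was not tested. As a description, the share of the variance of log2(FPKM + 0.1) that lay between stages was 7.61% for P2RY12, 9.84% for CX3CR1 and 10.7% for CSF1R, 18.6% for TREM2, 20.3% for TMEM119 and 20.9% for AIF1, and 33.8%, 37.5% and 49.8% for C1QC, C1QA and C1QB, beside a median of 18.2% over all genes tested.

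**Figure D2:**
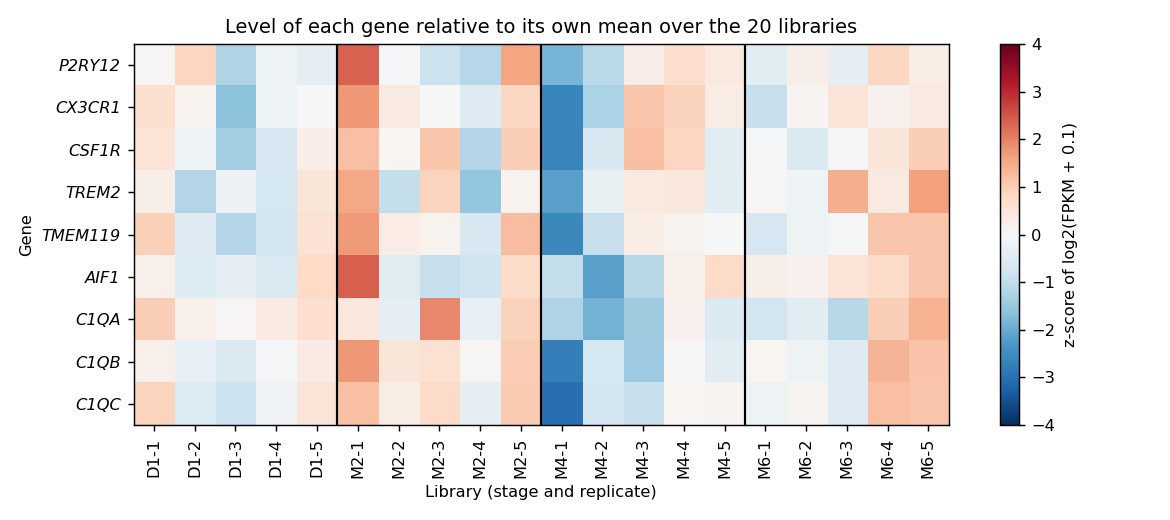
Each gene's log2(FPKM + 0.1) in each library, as a z-score around the gene's own mean over the 20 libraries (colour scale from -4 to 4, red above and blue below), with libraries in stage order along the x axis and vertical lines between stages. M4 replicate 1 is blue in all 9 rows and M2 replicate 1 is red in all 9, palest for C1QA.

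The comparison of stages asked which of these genes changed as the goats grew towards maturity. A differentially expressed gene (DEG) had to pass an adjusted p of 0.05 and a log2 fold change of 1 in either direction in the limma fit of log2(FPKM + 0.1) over all 16771 genes tested, and 0 of the 9 genes was a DEG in any of the 6 comparisons. DEGs were almost absent from the whole table, at 0% of genes for M2 vs. D1, 0% for M4 vs. M2, 0% for M6 vs. M4, 0.0537% for M4 vs. D1, 0.00596% for M6 vs. D1 and 0% for M6 vs. M2. The adjusted p values of the 9 genes in limma ran from 0.366 to 0.989 over the 54 tests. The 95% intervals had half-widths from 0.645 to 1.06 on the log2 scale, and 16 of the 54 lay wholly between -1 and 1, of which 5 were of P2RY12 and 4 of CX3CR1. For TMEM119 and TREM2, 0 of 6 intervals were that narrow, and each reached a change of 2-fold in at least 1 direction. Across the 4 stages together, the limma F test gave 0 of 9 genes an adjusted p under 0.05, beside 0.00596% of all genes. By unadjusted p it gave 3 of 9, beside 10.4% of all genes, namely C1QB, C1QA and C1QC, whose adjusted p values in limma were 0.363, 0.457 and 0.475.

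The largest differences were those of C1q between M2 and M4. C1QB was lower at M4 than at M2 by a log2 difference of -1.23 (SE 0.31, 95% interval -1.88 to -0.59), with an adjusted p of 0.390 in limma. C1QA was lower by -1.05 (SE 0.37, adjusted p = 0.508 in limma) and C1QC by -1.04 (SE 0.36, adjusted p = 0.508 in limma). These 3 were the genes at an unadjusted p under 0.05 and lower in M4 vs. M2, 3 of 9 beside 4.72% of all genes tested, and 1 of 9 without M2 replicates 1 and 3 and M6 replicate 3, which stood apart in an earlier analysis of these data. C1QB was the 1 of 9 whose groups did not overlap, as for 0.549% of all genes in that direction. The other 6 had log2 differences of -0.80 for TMEM119, -0.57 for CSF1R, -0.48 for AIF1, -0.44 for CX3CR1, -0.39 for TREM2 and -0.38 for P2RY12, with adjusted p values from 0.579 to 0.838 in limma. Without M4 replicate 1, the log2 difference was -0.96 for C1QB, -1.01 for C1QA and -0.68 for C1QC, and between -0.12 and -0.46 for CX3CR1, CSF1R, P2RY12 and TMEM119. Without M2 replicate 1, that of P2RY12 was -0.11. Markers of other cells differed too in M4 vs. M2, with a median log2 difference of 0.70 for 4 neuron genes, -0.48 for 6 myelin genes, -0.40 for 5 endothelial genes and -0.26 for 5 hypothalamus genes. Of the endothelial genes, 2 of 5 were lower at an unadjusted p under 0.05, the tight junction gene CLDN5 (log2 difference -1.01, adjusted p = 0.509 in limma) and the adhesion gene ESAM (-0.95, adjusted p = 0.515 in limma), and of the hypothalamus genes 1 of 5, the transcription factor gene NKX2-1 (-2.20, adjusted p = 0.569 in limma). These 3 genes are named after their values were seen, and the part of these cells in the C1q difference was not tested.

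Between M4 and M6 the values were higher again. C1QB was higher at M6 by a log2 difference of 0.96 (SE 0.31, adjusted p = 0.700 in limma), C1QC by 0.87 (SE 0.36, adjusted p = 0.700 in limma) and AIF1 by 0.70 (SE 0.33, adjusted p = 0.723 in limma). These 3 of 9 had an unadjusted p under 0.05 and were higher, beside 3.99% of all genes tested. Without M4 replicate 1 the count was 1 of 9, beside 799 of the 16771 genes in either direction. TREM2 had the largest difference of the 9 in M6 vs. M4, 0.96 (SE 0.51, adjusted p = 0.759 in limma), and 0.58 without M4 replicate 1. Both C1QB and TREM2 in this comparison, and all others with M4, use the same 5 M4 libraries as the comparison of M4 with M2.

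In M4 vs. D1, C1QA was lower by -1.01 (SE 0.37, adjusted p = 0.440 in limma) and C1QB by -0.66 (SE 0.31, adjusted p = 0.563 in limma), which makes 2 of 9 lower at an unadjusted p under 0.05, beside 6.21% of all genes, and 1 of 9 without M4 replicate 1. With the share of reads mapped as a covariate this count was 0 of 9, and with the replicate number as a block beside that covariate it was 7 of 9. Of the 16771 genes tested, 1403 and 1579 had an unadjusted p under 0.05 in limma, in either direction, in these fits. Without M4 replicate 1 it was 1787 of the 16771. In the other 3 comparisons 0 of 9 had an unadjusted p under 0.05, beside 15.6% of all genes for M2 vs. D1, 7.41% for M6 vs. D1 and 6.14% for M6 vs. M2. The difference nearest to the threshold there was C1QB in M2 vs. D1, higher by 0.58 (SE 0.31, 95% interval -0.07 to 1.22, adjusted p = 0.366 in limma). TREM2 was higher at M6 than at D1 by 0.84 (SE 0.51, adjusted p = 0.740 in limma).

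**Figure D3:**
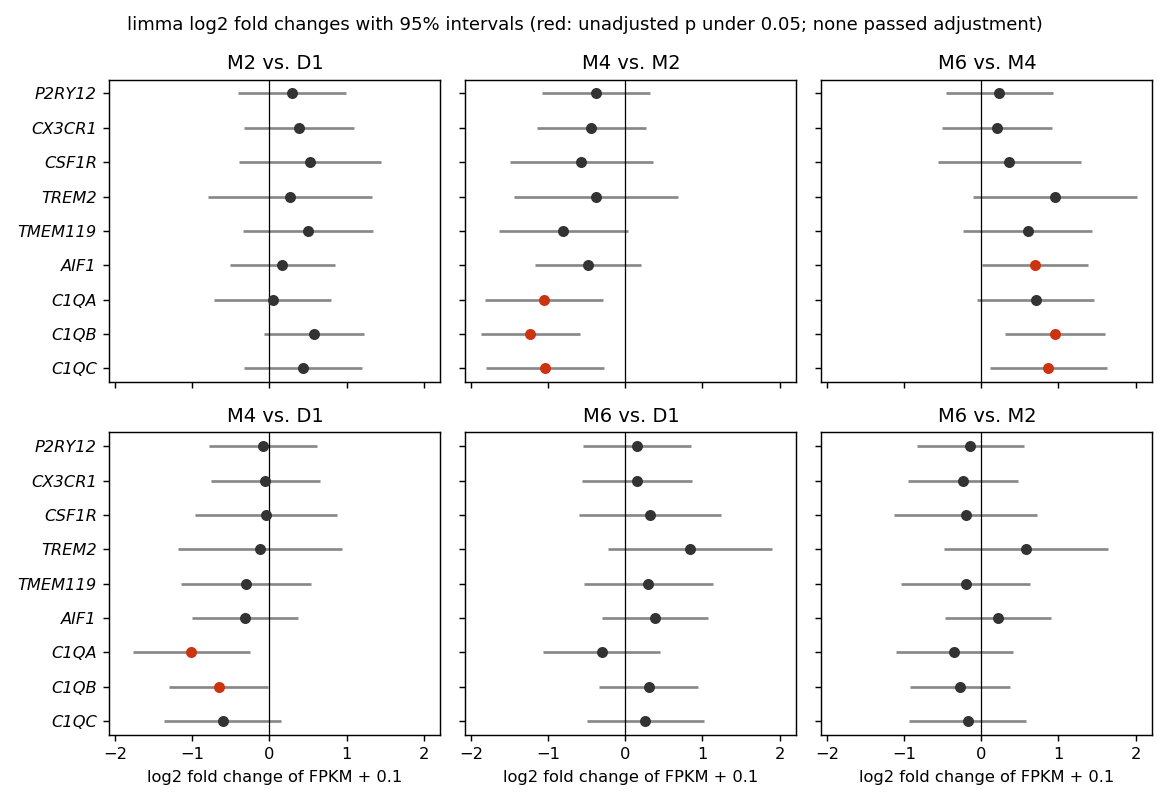
Log2 fold change of FPKM + 0.1 (x axis) with its 95% interval for each of the 9 genes (y axis) in the 6 comparisons, from the limma fit over all 20 libraries, with red points at an unadjusted p under 0.05. All 9 points lie left of 0 in M4 vs. M2 and right of 0 in M6 vs. M4, and 0 passed adjustment.

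The signs of the 9 differences ran together. The log2 fold change was above 0 for 9 of 9 genes for M2 vs. D1 (44.8% of all genes), 0 of 9 for M4 vs. M2 (48.3%), 9 of 9 for M6 vs. M4 (53.9%), 0 of 9 for M4 vs. D1 (43.7%), 8 of 9 for M6 vs. D1 (44.9%) and 2 of 9 for M6 vs. M2 (51.9%). The median log2 fold change of the 9 in M4 vs. M2 was -0.57, beside -0.02 over all genes, and in M6 vs. M4 it was 0.70, beside 0.04. In M2 vs. D1 the median was 0.39, beside -0.07. These comparisons share stages, and the 9 genes of a library are not independent of each other. Over 34 other settings of the fit, 0 or 1 gene was above 0 in M4 vs. M2 and 7 to 9 were in M6 vs. M4. Without M4 replicate 1, M4 vs. D1 had 5 of 9 above 0 with a median of 0.04. Without M2 replicates 1 and 3 and M6 replicate 3, M6 vs. M2 had 8 of 9 above 0 with a median of 0.16. With the share of reads mapped as a covariate, M2 vs. D1 had 6 of 9 above 0 and M6 vs. D1 had 6. With the replicate number as a block beside that covariate, M2 vs. D1 had 0 of 9 above 0 with a median of -0.53, M6 vs. D1 had 0 with a median of -0.36, and M6 vs. M2 had 7 with a median of 0.12. The medians over all genes were -0.015, -0.0007 and 0.007 in the same order. The replicate numbers showed no sign of pairing the goats, as described below. In the same fit, M4 vs. D1 stayed at 0 of 9, with a median of -1.03, beside -0.04 over all genes.

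The balance of the 3 C1q chains was examined as a ratio in each library, since the protein holds them in equal numbers. C1QA stood at 0.519 ± 0.0468 (D1), 0.394 ± 0.222 (M2), 0.437 ± 0.211 (M4) and 0.345 ± 0.0807 (M6) of C1QB (SD, n = 5). By library, it was 0.591, 0.518, 0.53, 0.481 and 0.474 at D1 and 0.262, 0.352, 0.290, 0.349 and 0.472 at M6, so that all 5 D1 values lay above all 5 M6 values. The mean log2 ratio was lower at M6 than at D1 by -0.61, with p = 0.00794 in a two-sided exact permutation test, the smallest p that 5 against 5 libraries can give, and an adjusted p of 0.143 over 18 such exact tests. C1QA against C1QC, at 0.719 ± 0.123 at D1 and 0.485 ± 0.101 at M6, was lower by -0.57 (exact permutation p = 0.0238, adjusted 0.214). C1QB against C1QC varied less, from 1.35 ± 0.257 at M4 to 1.53 ± 0.206 at M2, and differed by 0.14 in M2 vs. D1 (exact permutation p = 0.397). None of the 18 tests passed adjustment, and 16 of them, M6 vs. D1 included, were added after the values were seen.

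In single libraries the ratio of C1QA departed from this order. M2 replicate 3 had C1QA at 0.774 of C1QB and 0.996 of C1QC, and M4 replicate 1 had 0.785 and 1.34, while the other 8 libraries of these stages had C1QA at or below 0.433 of C1QB. For C1QA against C1QC in M2 vs. D1 the log2 difference was -0.40 (exact permutation p = 0.190), and without M2 replicate 3 it was -0.62 (exact p = 0.00794). For C1QA against C1QB in M2 vs. D1 the log2 difference was -0.54 (exact permutation p = 0.143), and without M2 replicate 3 it was -0.82 (exact p = 0.00794). In M4 vs. D1 it was -0.36 (exact permutation p = 0.294), and without M4 replicate 1 it was -0.60 (exact p = 0.00794). The libraries left out here were picked for their high ratio, and 0.00794, unadjusted, is the smallest exact p possible with 1 library left out. With each library left out in turn, the exact permutation p reached 0.357, 0.262 and 0.587 in the same order of comparisons. M2 replicate 3 also had the highest summed level of 5 border macrophage genes, 11.8 FPKM, with 10.65 the next highest, and of 5 endothelial genes, 124.9 FPKM, with 77.4 in M2 replicate 1 the next. Whether either takes part in its C1QA level was not tested.

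**Figure D4:**
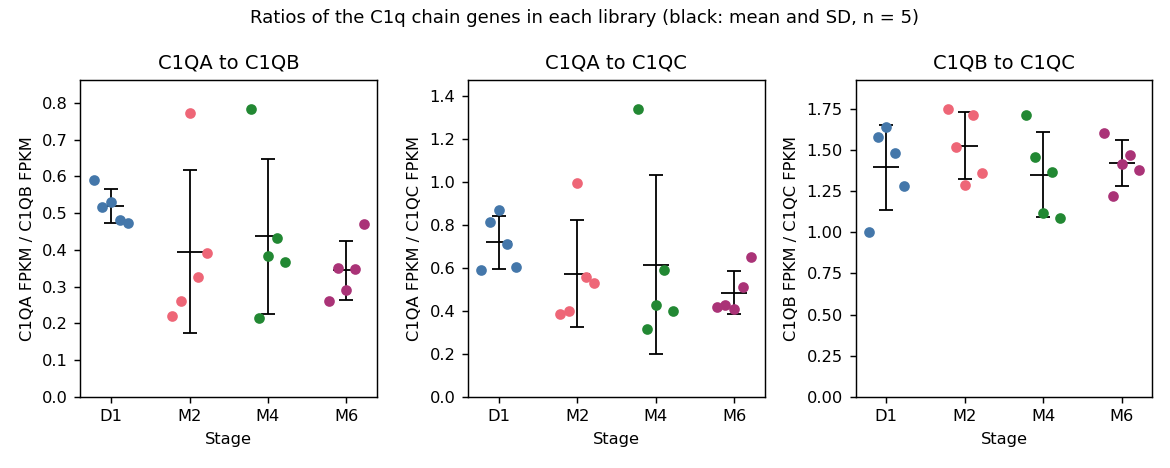
Ratio of FPKM between C1q chain genes (y axis, linear, from 0) in each library at D1, M2, M4 and M6 (x axis), with the mean and SD of 5 libraries in black. For C1QA to C1QB, the D1 points lie between 0.474 and 0.591 and the M6 points between 0.262 and 0.472, with 1 high library each at M2 and M4.

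C1q made up 30.4% ± 3.15 (D1), 32.15% ± 5.68 (M2), 22.9% ± 5.31 (M4) and 29.4% ± 5.92 (M6) of the summed FPKM of the 9 genes (SD, n = 5). The corresponding share of P2RY12 and CX3CR1 together was 41.4% ± 6.93, 40.4% ± 5.08, 47.1% ± 4.17 and 39.0% ± 5.28. The M4 libraries thus had the lowest mean share of C1q and the highest of the 2 receptors, with overlap between stages in both, and these shares were not tested.

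The 9 genes varied together from library to library. Over the 20 libraries, which share tissue, depth and composition within each library, Pearson's r of log2(FPKM + 0.1) between members was above 0 for all 36 pairs, with a median of 0.667, and above 0.5 for 30. The closest pair was C1QB and C1QC at 0.948, followed by TMEM119 and C1QC at 0.907, TMEM119 and CSF1R at 0.882 and CX3CR1 and TMEM119 at 0.869. The most distant were P2RY12 and C1QA at 0.356 and CX3CR1 and C1QA at 0.359. C1QA had r values of 0.7104 and 0.7248 with C1QB and C1QC, below their own 0.948. Among all pairs of genes with a mean of 2 to 50 FPKM, the median r was 0.0266 and 9.12% were above 0.5. With the stage means subtracted, the 36 pairs had r from 0.318 to 0.933. Without M2 replicate 1 and M4 replicate 1, the libraries farthest from the median, the median was 0.523 and 19 pairs were above 0.5.

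The genes most like the 9 were found by Pearson's r with the mean of their z-scores over the 20 libraries, among 13659 other genes with a mean of at least 1 FPKM. ITGAM, which encodes the alpha chain of complement receptor 3 (CD11b), was the first with r = 0.928, and ITGB2, the beta chain of the same receptor, was the third with r = 0.897. CYTH4, an exchange factor for small GTPases in blood cells, had r = 0.905, and FOLR2, a folate receptor of macrophages, had r = 0.897. C28H10orf54 had r = 0.893 and C11H2orf68 had r = 0.892. SPI1, the transcription factor PU.1 that macrophages and microglia need, had r = 0.884, and CARD9, an adaptor of myeloid receptors, had r = 0.875. Without M2 replicate 1 and M4 replicate 1 these 8 values ran from 0.765 for ITGB2 to 0.871 for ITGAM. ITGAM, ITGB2 and SPI1 were also on the lists of complement and microglia genes used below.

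**Figure D5:**
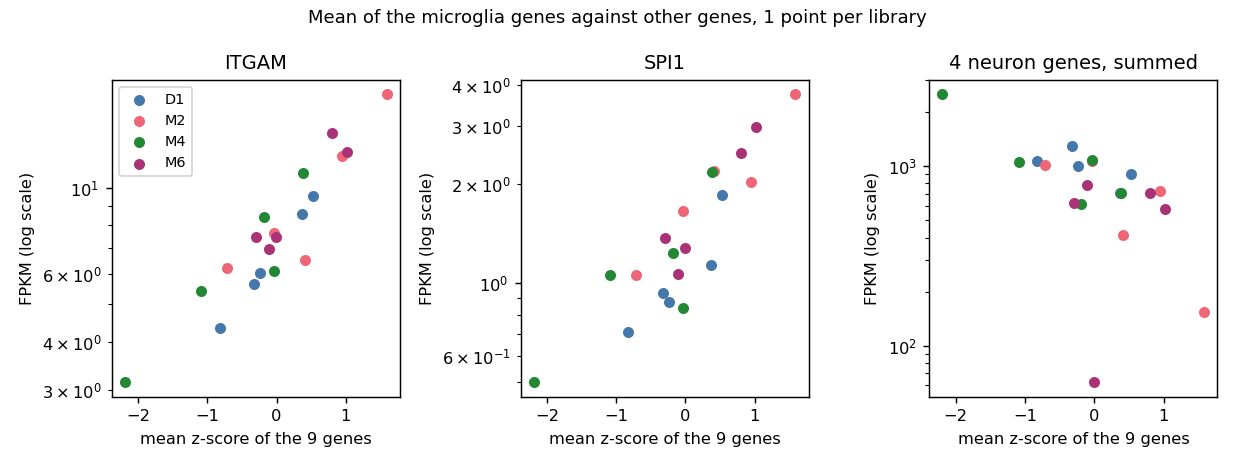
FPKM on a log scale (y axis) of ITGAM, SPI1 and the sum of 4 neuron genes against the mean z-score of the 9 microglia genes (x axis), with 1 point per library, coloured by stage. ITGAM (r = 0.928) and SPI1 (r = 0.884) climb from M4 replicate 1 at the far left to M2 replicate 1 at the far right, while the neuron sum is highest at the far left.

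Other genes of the same pathways were taken from lists, and 0 genes of these lists were DEGs. Of the 10 ligands, adaptors and signalling partners of the member receptors, the highest was APOE, a lipid carrier of astrocytes and microglia that binds TREM2, at 696 ± 93.5 (D1), 817 ± 159 (M2), 450.5 ± 206 (M4) and 698 ± 211 (M6) FPKM (SD, n = 5). Its log2 difference was -0.96 in M4 vs. M2 (SE 0.31, adjusted p = 0.499 in limma), and its r with the mean of the 9 genes was 0.738. TYROBP, the adaptor of TREM2, was at 14.6 ± 4.93 (D1), 25.9 ± 14.3 (M2), 16.1 ± 9.71 (M4) and 27.96 ± 9.36 (M6), and had a log2 difference of 0.95 in M6 vs. M4 (SE 0.39, adjusted p = 0.700 in limma) and an r of 0.737. ADAM10 and ADAM17, proteases that cut TREM2 and fractalkine from the cell surface, had means of 34.2 ± 5.62 and 10.98 ± 2.99 FPKM over the 20 libraries and r values of -0.114 and 0.528. In M6 vs. M4, 4 of the 10 partners were higher at an unadjusted p under 0.05, namely APOE, TYROBP, the growth factor CSF1 and the kinase SYK, beside 3.99% of all genes, the last 2 of them named after their values were seen. The partners' median log2 fold change was 0.38 there, beside 0.04 over all genes. IL34, the ligand of CSF1R made mainly by neurons, differed by 1.07 in M6 vs. D1 (SE 0.28, adjusted p = 0.327 in limma), and is named after its values were seen.

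Of 16 genes of the classical complement pathway, its receptors and its regulators, 14 were measured, and C4A and CD46 were not matched. C3, the central protein that C1q activation leads to, was at 52.9 ± 26.8 (D1), 80.3 ± 44.4 (M2), 61.03 ± 41.1 (M4) and 68.4 ± 18.8 (M6) FPKM, with an r of 0.872 to the mean of the 9 genes. The regulator CFI had a mean of 17.3 ± 6.30 FPKM over the 20 libraries and an r of 0.314, and C1S, a protease that C1q activates, had 18.5 ± 4.66 and 0.066. C3 thus followed the 9 genes more closely than C1S and CFI did, as a description. In M4 vs. M2, 0 of the 14 were lower at an unadjusted p under 0.05 (4.72% of all genes), with a median log2 fold change of -0.11 beside -0.02 over all genes.

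A list of 9 other microglia genes held mostly genes of purine sensing and nucleotide breakdown. The highest of the 9 was GPR34, a lysophospholipid receptor and not a purine receptor, at 17.2 ± 4.998 (D1), 23.7 ± 11.1 (M2), 18.6 ± 8.63 (M4) and 26.3 ± 10.99 (M6) FPKM with an r of 0.625. ADORA3, an adenosine receptor, had 12.4 ± 3.17 (D1), 17.00 ± 6.86 (M2), 10.8 ± 4.24 (M4) and 16.3 ± 3.35 (M6) FPKM, a log2 difference of -0.67 in M4 vs. M2 and of 0.68 in M6 vs. M4 (SE 0.30, adjusted p = 0.561 and 0.700 in limma) and an r of 0.807. P2RX7, an ATP-gated channel, had stage means of 7.41 ± 2.16 (D1), 9.201 ± 2.58 (M2), 11.8 ± 6.76 (M4) and 15.9 ± 5.99 (M6), and differed by 1.06 in M6 vs. D1 (SE 0.39, adjusted p = 0.591 in limma). NT5E, the enzyme that makes adenosine outside the cell, had a mean of 13.1 ± 5.51 over the 20 libraries and an r of 0.165. In M6 vs. M4, P2RY13, named after its values were seen, and ADORA3 made 2 of 9 that were higher at an unadjusted p under 0.05, beside 3.99% of all genes.

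Of 17 other identity and lysosome genes of microglia and macrophages, 13 had a log2 fold change below 0 in M4 vs. M2 and 16 had one above 0 in M6 vs. M4, with medians of -0.35 and 0.52. Of all genes, 48.3% and 53.9% were above 0 in these comparisons, with medians of -0.02 and 0.04. CTSS, a lysosomal protease, was at 46.3 ± 13.99 (D1), 61.2 ± 36.6 (M2), 49.1 ± 23.4 (M4) and 75.2 ± 12.5 (M6) FPKM, with an r of 0.693. LAPTM5, a lysosomal membrane protein of blood cells, was at 26.6 ± 8.56 (D1), 36.6 ± 17.7 (M2), 23.98 ± 8.21 (M4) and 39.9 ± 17.1 (M6), with an r of 0.862. MERTK, a receptor for the uptake of dying cells, was at 8.01 ± 2.05 (D1), 13.2 ± 4.598 (M2), 7.57 ± 2.55 (M4) and 8.62 ± 1.76 (M6), differed by -0.80 in M4 vs. M2 (SE 0.27, adjusted p = 0.499 in limma), and had an r of 0.806. LPCAT2, an enzyme of lipid mediator synthesis, had a mean of 13.95 ± 9.86 over the 20 libraries and an r of 0.428. In M6 vs. M4, 5 of 17 were higher at an unadjusted p under 0.05, beside 3.99% of all genes. The list's median r to the 9 genes was 0.646, with 12 of 16 genes with a mean of at least 1 FPKM above 0.5, beside a median of 0.0316 and 9.86% above 0.5 over all genes.

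Of 14 genes of activated microglia, 12 were measured, and CCL2 and CYBB were not matched. SPP1, the secreted protein osteopontin, ranged from 34.5 to 1234 FPKM with stage means of 197 ± 153 (D1), 169 ± 91.7 (M2), 265 ± 225 (M4) and 624 ± 439 (M6), and CD9, a tetraspanin that myelinating cells also carry, had 308 ± 132 (D1), 131 ± 50.4 (M2), 101 ± 62.4 (M4) and 156 ± 69.3 (M6). Their r values with the 9 genes were 0.165 and 0.177, lower than those of CD74, the invariant chain of antigen presentation, at 0.542, and of AXL, a receptor for the uptake of dying cells, at 0.815. CD74 was at 7.41 ± 3.12 (D1), 15.2 ± 4.29 (M2), 14.2 ± 12.7 (M4) and 25.03 ± 13.7 (M6) FPKM and differed by 1.68 in M6 vs. D1 (SE 0.56, adjusted p = 0.504 in limma), and AXL had a mean of 8.92 ± 2.64 over the 20 libraries. In M6 vs. M4, 12 of 12 had a log2 fold change above 0, with a median of 0.70, beside 53.9% of all genes above 0 and a median of 0.04. Of the 12, 3 were higher at an unadjusted p under 0.05, beside 3.99% of all genes.

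The listed genes that mark other cells of the macrophage and blood lineage had low summed levels. FOLR2, named above as a folate receptor of macrophages, was not on these lists and had a mean of 11.4 FPKM and an r of 0.897. The 5 measured genes of border macrophages, which line the vessels and meninges, summed to 1.42 to 11.8 FPKM per library, and to 6.19 ± 2.82 (D1), 4.26 ± 4.21 (M2), 2.86 ± 0.887 (M4) and 4.12 ± 1.82 (M6) by stage (SD, n = 5). CD209 was at 0 in 13 of the 20 libraries, MRC1 ranged from 0.524 to 4.96 FPKM, and CD163, STAB1, PF4 and MS4A7 were not matched. The 10 measured leukocyte genes of 12 listed summed to 1.45 to 17 FPKM, the B cell gene CD79A was at 0 in all 20 libraries, and S100A12 and CCR2 were not matched. Of these marker genes, 0 were DEGs. The lectin gene CD209 had log2 differences of -1.88 for M2 vs. D1, -1.96 for M4 vs. D1 and -1.71 for M6 vs. D1 (SE 0.39), with adjusted p values of 0.104, 0.0741 and 0.205 in limma. S100A8, a calcium-binding protein of neutrophils and monocytes, had one of -3.24 for M4 vs. D1 (SE 0.62, adjusted p = 0.0546 in limma). CD209 was a DEG in all 3 with library quality weights, without a filter and without the trend, and in M4 vs. D1 without D1 replicate 3. S100A8 was a DEG in all 3 with the weights, and in M4 vs. D1 with a pseudocount of 1 and in 4 of the fits without 1 library. Both are named after their values were seen. CD209 was at 0.316 ± 0.15 FPKM at D1 and at most 0.14 at M6, near the 0.1 added before the logarithm. In M4 vs. D1, 3 of the 5 border macrophage genes were lower at an unadjusted p under 0.05, beside 6.21% of all genes. They were CD209, MRC1 (-1.15, adjusted p = 0.525 in limma) and LYVE1 (-1.61, adjusted p = 0.489 in limma), again named after their values were seen. The log2 fold change was above 0 for 0 of the 5, beside 43.7% of all genes. As a description over the 20 libraries, the summed level of border macrophage genes had r = -0.064 with the mean of the 9 genes, that of leukocyte genes -0.041, that of 4 neuron genes -0.544, that of 6 myelin genes 0.288, that of 5 astrocyte genes 0.580 and that of 5 endothelial genes 0.545. For the 6 hypothalamus genes, summed in the same way, r was 0.507, and 4 of them with a mean of at least 1 FPKM had r from 0.364 to 0.638. Without M2 replicate 1 and M4 replicate 1 these values were, in the same order of lists, 0.068, -0.452, -0.227, 0.108, 0.593, 0.359 and 0.577. In M6 vs. M4, where the 9 genes had a median log2 fold change of 0.70, the neuron genes had -1.29, the myelin genes 0.81 and the 5 hypothalamus genes tested 1.90, and the part of these cells in the difference was not tested. The summed level of 5 proliferation genes was 11.7 ± 5.99 at D1 and 4.77 ± 2.61, 3.39 ± 1.02 and 4.08 ± 1.14 at M2, M4 and M6, with r = -0.217 to the 9 genes. Among them TOP2A, a topoisomerase of dividing cells named after its values were seen, had a log2 difference of -2.59 for M4 vs. D1 (adjusted p = 0.0889 in limma) and of -2.41 for M6 vs. D1 (adjusted p = 0.239 in limma), and was a DEG in both without D1 replicate 5, at -3.17 and -2.98.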

How the data were processed

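RNA was measured in hypothalamic tissue of 20 female goats, 5 at each of 4 stages, from strand-specific libraries depleted of rRNA. Reads cleaned by fastp were mapped by the authors with HISAT2 2.0.5 to the goat genome ARS1.2, and the deposited FPKM per gene came from StringTie 1.3.3b. The study gives the reads of each library, but the read counts behind each gene's value are not given in the sources used here. No counting error was therefore calculated, and the precision rests on the spread between goats. Of 21071 gene IDs, 20610 matched a symbol in the RefSeq annotation of ARS1.2, which also gave the positions.

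The 9 genes and the gene lists were chosen with earlier results of these data known. A gene was tested where 5 or more libraries reached 0.1 FPKM (16771 genes). In R 4.3.3, limma 3.58.1 fitted log2(FPKM + 0.1) by stage, without a block and with a variance trend, and the Benjamini-Hochberg adjustment ran over all these genes. Fold changes are on the log2(FPKM + 0.1) scale, which understates changes of low genes. The fit was tested on simulated data. Ratios of C1q genes were compared with exact permutation tests over the library labels, two-sided. Named from each pathway list were its DEGs and its 4 genes with the highest mean FPKM, and from all other genes the 8 most like the members. Of the genes this names, 1 is not reported here. Sequences were not used here. Python 3.11.15 with pandas 2.3.3, numpy 2.4.6, scipy 1.17.1 and matplotlib 3.10.9 was used. Other pseudocounts, filters, scalings, weights, the mapping rate of each library as the study gives it, and sets of libraries were tried.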

Additional observations from a re-analysis of the deposited data

Results flagged for a closer look

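Among 48 groups of 5 libraries, the FPKM of each of the 9 genes and each C1q ratio at each stage, 2 had 1 library far from the others by Dixon's criterion, which chance alone meets in about 1 of 20 groups. At M2 the highest ratio of C1QA to C1QC was 0.996, in replicate 3, with the next library at 0.560. At M4 the highest was 1.34, in replicate 1, with the next at 0.593. Their causes were not tested.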

How the results depend on the processing

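Over 34 alternatives, 0 of the 9 genes was a DEG in any comparison, and the smallest adjusted p of a member in limma was 0.160, for C1QB for M2 vs. D1 with library quality weights (log2 difference 0.60). The 9 log2 fold changes followed here, each gene's comparison nearest to the threshold, kept their direction in all alternatives run. Counts of DEGs among all genes were unstable. With library quality weights they were 148 for M2 vs. D1, 65 for M4 vs. D1, 95 for M6 vs. D1 and 170 for the test over any stage, and of the pathway lists 1 gene, IL34 (log2 1.22 for M6 vs. D1), was called for M6 vs. D1 and over any stage. Of the markers of other cells, CD209 and S100A8 were called too with these weights, for M2 vs. D1, M4 vs. D1, M6 vs. D1 (-1.71 and -2.17) and over any stage. With a pseudocount of 1 they were 2 for M2 vs. D1, 1 for M4 vs. M2, 0 for M6 vs. D1, 1 for M6 vs. M2 and 4 over any stage, and with 0.01, 0 for M6 vs. D1 and 0 over any stage. Without a filter they were 1, 2 and 2 for M2 vs. D1, M6 vs. D1 and over any stage, and with a mean of at least 1 FPKM, 0 for M6 vs. D1 and over any stage. Without the trend they were 1, 3 and 2 for M2 vs. D1, M6 vs. D1 and over any stage. With only the stages compared they were 1 for M2 vs. D1, 0 for M4 vs. D1 and 0 for M6 vs. D1. Quantile normalization gave 5 for M4 vs. D1, and median-ratio scaling 5 for M4 vs. D1, 2 for M6 vs. D1 and 0 over any stage. With the mapping rate as a covariate they were 3 for M4 vs. D1, 0 for M6 vs. D1, 1 for M6 vs. M2 and 0 over any stage. Leaving out 1 library at a time gave 0 to 10 for M2 vs. D1, 0 to 3 for M4 vs. M2, 4 to 32 for M4 vs. D1, 0 to 20 for M6 vs. D1, 0 to 1 for M6 vs. M2 and 0 to 17 over any stage. The causes were not tested.

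The replicate numbers showed no sign of pairing the goats. Of 30 pairs of libraries with the same number, 7 had deviations correlated above 0.1 (median r -0.011, highest 0.43), and 3 of 20 libraries were closest to one of their own number. Whether some libraries of the same number shared a batch was not tested. With the replicate block, 0 members were called, and the counts were 0 for M6 vs. D1 and 0 over any stage, and with the mapping rate beside it 0 for M4 vs. D1, M6 vs. D1 and over any stage. Under this block, C1QA to C1QC for M6 vs. D1 (-0.57) had an exact p of 0.125 and C1QA to C1QB (-0.61) one of 0.0625. With 5 libraries per stage matched by number, 0.0625 is the smallest p this exact test can give. Neither ratio could therefore pass 0.05, and no conclusion is drawn from these p values.

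Leaving out 1 library at a time moved the log2 difference of C1QA to C1QC for M2 vs. D1 between -0.62 and -0.27, for M4 vs. D1 between -0.73 and -0.22 and for M6 vs. D1 between -0.68 and -0.50. C1QA to C1QB moved between -0.82 and -0.36, -0.60 and -0.14, and -0.73 and -0.52 in the same comparisons, and C1QB to C1QC for M2 vs. D1 between 0.03 and 0.20. Without M2 replicates 1 and 3 and M6 replicate 3, C1QA to C1QC differed by -0.53 and C1QA to C1QB by -0.68 for M2 vs. D1, both past an unadjusted exact p of 0.05.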
